A study of Caenorhabditis elegans with 2 samples.

Results

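The genes that encode the proteins of the small (40S) subunit of the cytosolic ribosome in Caenorhabditis elegans carry symbols that begin with rps-. All protein-coding genes with such a symbol in Ensembl release 115 on assembly WBcel235 were taken, which gave 31 genes of 19973 protein-coding genes. The values described are the positions and strengths of FKH-10 chromatin immunoprecipitation (ChIP-seq) peaks near the annotated 5' ends of these genes. A gene was counted as having a summit, the highest point of a peak, where at least 1 summit lay within 1 kb of its start on either side. The rule reads only the gene symbol.

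The 40S subunit binds messenger RNA and scans it for the start codon, and it holds the decoding centre where codons and transfer RNAs are matched. Its proteins are needed in fixed proportions, and their genes are among the most strongly transcribed in growing animals. FKH-10 is a transcription factor of the forkhead family, whose members bind DNA through a winged helix domain that recognises a short core motif. In C. elegans many messenger RNAs receive a spliced leader in place of their own 5' end, so an annotated gene start can lie downstream of the site where transcription begins. Some neighbouring genes on the same strand are also transcribed together as operons. Neither trans-splicing nor operon annotation was used here.

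Both libraries came from 1 group, whole L3 larvae of mixed sex of strain OP337. The genotype is unc119(ed3) with the transgene wgIs377, which holds fkh-10 joined to TY1, EGFP and FLAG together with unc119. Both libraries thus shared the ed3 allele, the unc119 copy on the transgene and a stably expressed FKH-10 tagged at its C terminus. The antibody is labelled fkh-10, and chromatin was sheared by sonication. The 2 libraries were separate biological samples, and no second genotype, stage or treatment was compared. No test between groups was therefore possible, and all counts below are descriptions of these 2 libraries.

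The authors' thresholded list had 2005 peaks. The lists for pooled reads, for replicate 1 and for replicate 2 had 30000 regions each, of near-constant width. Every thresholded peak was a pooled region, and together they were the 2005 pooled regions of highest signal. The signal value was given by the authors' peak caller with a scaling that was not stated, so it is compared only within a list, and ranks are used between lists. No list had a summit within 20 kb of the start of fkh-10 itself. Read numbers are not given for either library, so the depth behind each value is unknown. The replicates differed at 1 rps peak in particular, since replicate 2 had no region overlapping the thresholded peak of rps-18, so the main counts that include rps-18 are also given without it.

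The DNA at 9 of the rps summits is printed below, in windows of 101 bp centred on the thresholded summit and read 5' to 3' on the strand of the gene. The first pair of windows belongs to the rps genes with the strongest peaks, and the others hold letters that recurred among the rps windows. Capitals mark these recurring words of 6, 11 or 16 letters, and the rules that found them are given further below. Runs made mainly of A or of T that also recurred are not in capitals. The sequences are those of the ce11 (WBcel235) reference, counted from 1.
rps-12, chrIII:5679084-5679184, plus strand: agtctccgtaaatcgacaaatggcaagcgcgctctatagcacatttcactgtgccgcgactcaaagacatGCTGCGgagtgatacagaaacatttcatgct
rps-28, chrIV:1659196-1659296, plus strand: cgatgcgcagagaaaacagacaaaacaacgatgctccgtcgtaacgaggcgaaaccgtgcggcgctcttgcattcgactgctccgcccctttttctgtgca
rps-22, chrIII:1950353-1950453, plus strand: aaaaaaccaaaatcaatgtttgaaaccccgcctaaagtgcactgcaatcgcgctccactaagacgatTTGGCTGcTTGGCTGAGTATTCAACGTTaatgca
rps-30, chrV:7776342-7776442, plus strand: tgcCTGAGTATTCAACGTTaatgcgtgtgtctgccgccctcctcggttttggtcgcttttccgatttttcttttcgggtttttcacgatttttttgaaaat
rps-14, chrIII:7179795-7179895, minus strand: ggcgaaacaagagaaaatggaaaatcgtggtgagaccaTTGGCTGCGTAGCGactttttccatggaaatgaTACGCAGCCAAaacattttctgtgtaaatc
rps-21, chrIII:7189865-7189965, minus strand: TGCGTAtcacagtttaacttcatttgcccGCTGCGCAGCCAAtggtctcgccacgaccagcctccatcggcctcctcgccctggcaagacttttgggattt
rps-24, chrIV:385531-385631, plus strand: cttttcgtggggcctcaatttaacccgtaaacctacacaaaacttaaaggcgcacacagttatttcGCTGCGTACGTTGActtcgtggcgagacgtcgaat
rps-4, chrIV:7084904-7085004, minus strand: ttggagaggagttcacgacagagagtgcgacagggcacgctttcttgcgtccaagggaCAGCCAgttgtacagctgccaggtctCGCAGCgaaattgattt
rps-23, chrIV:12391253-12391353, minus strand: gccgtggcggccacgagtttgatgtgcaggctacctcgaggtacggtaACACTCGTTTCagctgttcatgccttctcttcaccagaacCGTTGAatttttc

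Of the 31 rps genes, 19 (61.3%) had a thresholded summit within 1 kb of the start, and 18 did without rps-18. Over all protein-coding genes the same rule called 1095 of 19973 genes, or 5.48%. The large subunit (60S) genes, with symbols that begin with rpl-, stood at 31 of 47 (66.0%). When each summit was given only to its nearest gene start, 10 of the 31 rps genes kept one, against 4.08% of all genes, and in the other 9 cases the start of another gene was nearer.

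In the longer lists more rps genes had a summit, and so did more genes of any kind. The pooled list had one at 28 of 31 rps genes, where 49.5% of all protein-coding genes had one. Replicate 1 had one at 29 rps genes against 48.7% of all genes. Replicate 2 had one at 25 rps genes against 48.0% of all genes. With a background of this size, ranks rather than presence are given for these lists. The strongest pooled summit of the rps genes had a median rank of 1108.5 over 28 genes, against 12146 over the 9882 protein-coding genes with one. For the rpl genes the median rank was 1493.

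**Figure D1:**
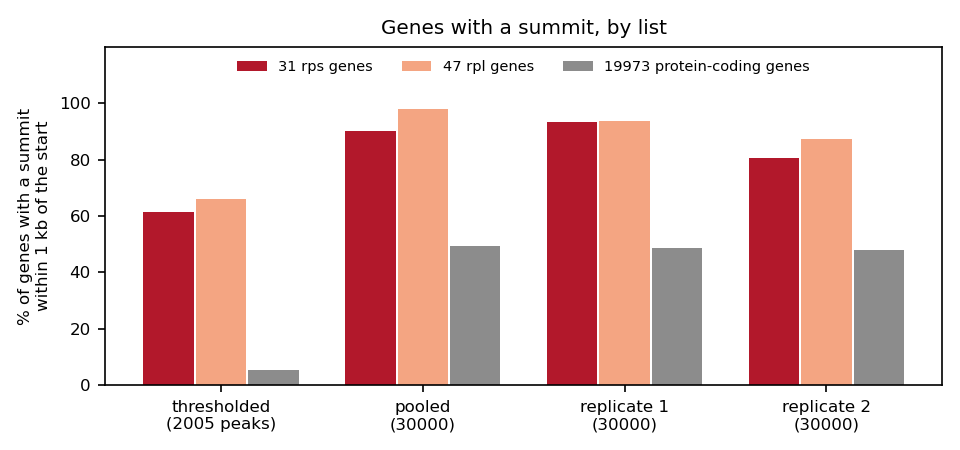
Share of genes with a summit within 1 kb of the start (vertical axis, percent) in each of the 4 lists (horizontal axis), for 31 rps genes, 47 rpl genes and all 19973 protein-coding genes. In the thresholded list the rps bar stands at 61.3% and that of all genes at 5.48%, and in the 3 longer lists the bar of all genes is between 48.0% and 49.5%.

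Ribosomal proteins are placed in the head or in the body and platform of the subunit by the structures of yeast and human ribosomes, and the genes were grouped by this placement with their values already known. Of 13 genes for head proteins 8 had a thresholded summit, or 7 without rps-18, and of 18 genes for body and platform proteins 11 did. The signals of the head genes ran from 34.2 to 88.4 with a median of 68.8, and those of the body and platform genes from 30.0 to 73.0 with a median of 46.2. The ranges overlapped over most of their length.

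Among the head genes, rps-12 (WBGene00004481) had the strongest peak of all rps genes. Its region spanned chrIII:5678952-5679315 with the summit 164 bp upstream of the start, a signal of 88.4 and rank 71 of 2005. The overlapping region had rank 142 in replicate 1 and rank 85 in replicate 2, so it was near the top in both. The peak of rps-28, at chrIV:1659064-1659427, had a signal of 82.6 and rank 97, with its summit 445 bp upstream. It was much higher in replicate 1, at rank 116, than in replicate 2, at rank 986. The protein of rps-19, whose human counterpart RPS19 is mutated in Diamond-Blackfan anaemia, is needed for maturation of the small subunit RNA. Its peak had a signal of 80.7, with ranks of 199 and 133 in replicates 1 and 2 and the summit 291 bp upstream.

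The peak of rps-20 had a signal of 71.1, with its summit 244 bp upstream, and stood at rank 437 in replicate 1 and rank 132 in replicate 2. The protein of rps-15 reaches close to the decoding centre, and its gene showed a wide gap between the libraries. The signal in the thresholded list was 66.5 with the summit 398 bp upstream, while the rank was 125 in replicate 1 and 1378 in replicate 2. Weaker peaks lay at rps-29, with a signal of 44.5 and the summit 564 bp upstream, at rps-18, with 36.1 and 522 bp, and at rps-10, with 34.2 and 362 bp. In human cells the counterparts of the proteins of rps-10 and rps-20 are ubiquitinated when ribosomes collide. The summits of rps-29 and rps-18 were the farthest from their starts among the 19 genes.

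Among the body and platform genes, rps-1 had the strongest peak, at chrIII:4475475-4475838, with a signal of 73.0 and its summit 261 bp upstream. Its ranks of 281 and 197 in the replicates were close together. The protein of rps-26 lies at the exit of the mRNA channel, and its gene had a signal of 56.6 with ranks of 488 and 536. The peak of rps-4 had a signal of 54.0 and that of rps-22 a signal of 51.1, with summits 272 and 132 bp upstream. The summit of rps-22 was the closest to a start among the 19 genes.

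Intermediate signals were seen at 4 further genes of this class, with 46.3 at rps-24, 46.2 at rps-14, 45.1 at rps-21 and 42.3 at rps-23, whose protein lines the decoding centre and bears on the accuracy of translation. Their summits lay 306, 257, 284 and 250 bp upstream, in the same order. Of these, rps-24 ranked 452 in replicate 1 and 2978 in replicate 2, and rps-21 went the other way, with 1797 and 455. The lowest signals were 37.8 at rps-0, 32.1 at rps-30 and 30.0 at rps-9, near the lowest value in the thresholded list of 28.2. In mammals the counterpart of rps-30 is made as a fusion to a ubiquitin-like protein. The protein of rps-9 lies at the entry of the mRNA channel, and its peak ranked 2123 and 2219 in the replicates, outside the strongest 2005 regions of each.

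**Figure D2:**
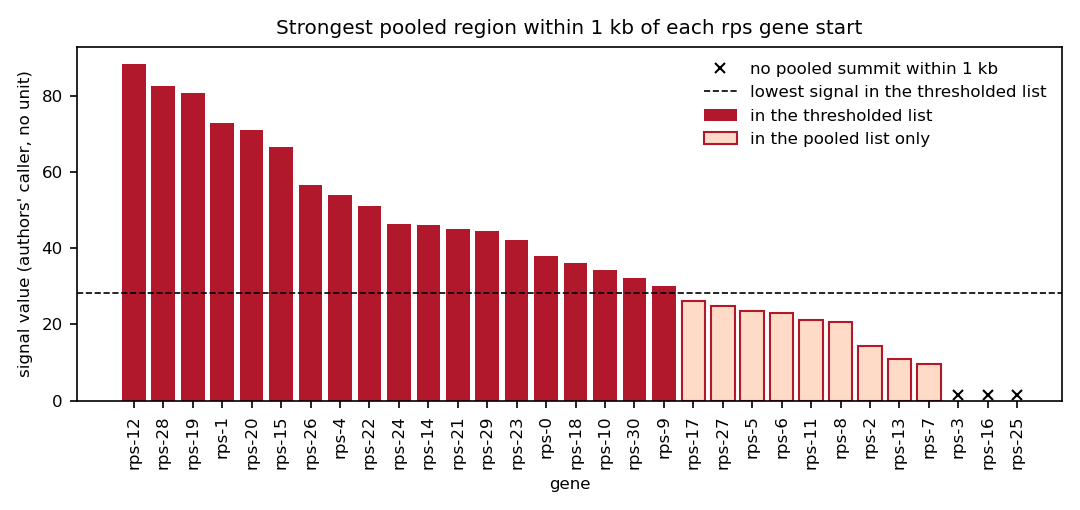
Signal value of the strongest pooled region within 1 kb of the start (vertical axis, no unit) for each of the 31 rps genes (horizontal axis, in descending order); dark bars are also in the thresholded list and crosses mark genes with no pooled summit. The dark bars run from 88.4 at rps-12 to 30.0 at rps-9, and 6 light bars from rps-17 to rps-8 follow between 26.2 and 20.5 with no break at the dashed line.

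The 12 rps genes with no thresholded summit were not alike. For 6 of them the strongest pooled summit lay upstream at a rank just past the thresholded list. These were rps-17 with a signal of 26.2 and rank 2248, rps-27 with 24.9 and 2424, rps-5 with 23.6 and 2627, rps-6 with 23.1 and 2698, rps-11 with 21.3 and 3041, and rps-8 with 20.5 and 3205. The protein of rps-6 is the substrate of S6 kinase in yeast and mammals. Their summits were 222 to 651 bp upstream, a range that overlaps that of the called genes. In replicate 1 these 6 genes had ranks from 1367 for rps-17 to 2879 for rps-5. In replicate 2 rps-6 and rps-8 had no summit within 1 kb, and the ranks of the other 4 ran from 4130 for rps-27 to 13772 for rps-5. Each of these 4 ranked lower in replicate 2 than in replicate 1, and at rps-5 and rps-11 the summit in replicate 2 was a different one, 254 bp downstream and 790 bp upstream of the start.

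The remaining 6 genes were weak or without a summit. The pooled signal was 14.3 at rps-2, with a summit 862 bp downstream of the start, 10.8 at rps-13 and 9.59 at rps-7. At rps-2 this was the single case among the 28 in which the strongest pooled summit was downstream. Genes rps-3, rps-16 and rps-25 had no pooled summit within 1 kb. The protein of rps-3 lies at the mRNA entry, and its nearest pooled summit was 1262 bp downstream with a signal of 7.73. The nearest to rps-25 was 4386 bp downstream at rank 9449.

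The case of rps-16 was different, because a strong peak lay farther upstream. This peak had a signal of 57.3 and rank 424, and its summit was 1743 bp upstream of the start of rps-16. It lay 61 bp upstream of the start of fib-1, which encodes fibrillarin, the methyltransferase of box C/D small nucleolar ribonucleoproteins. Gene fib-1 is on the same strand and ends 110 bp upstream of rps-16. The same region was seen at rank 468 in replicate 1 and rank 524 in replicate 2. With a window of 2 kb in place of 1 kb, rps-16 was the 1 gene added, giving 20 of 31, while the share of all protein-coding genes went from 5.48% to 8.12%.

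Each of the 19 genes had exactly 1 thresholded summit within 1 kb, and all 19 summits were upstream of the start. Over all protein-coding genes 4.79% had a thresholded summit upstream within 1 kb. Among the 1095 genes with a summit the strongest was upstream in 86.8%, and among the 31 such rpl genes in 93.5%. The rps summits lay 132 to 564 bp upstream with a median of 284 bp and an SD of 115 bp (n = 19). Without rps-18 the median was 278 bp. All 19, or 18 of 18 without rps-18, were between 100 and 600 bp upstream, against 26 of 31 rpl genes (83.9%) and 665 of 1095 genes in all (60.7%). This band encloses the whole rps range of 132 to 564 bp, so the rps share was fixed by the choice of band. The gaps to the other shares are thus not a result about the rps genes. No test was made of these shares, because genes that share an upstream region share a summit.

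**Figure D3:**
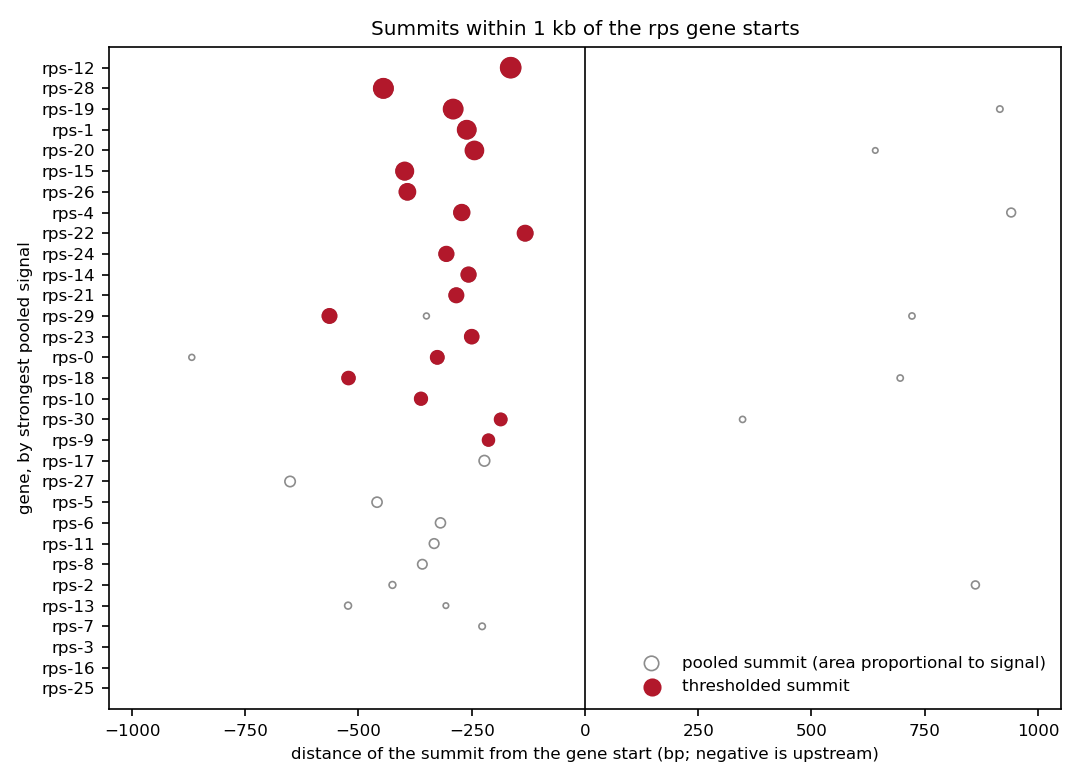
Position of every pooled summit (open circles) and thresholded summit (filled circles) within 1 kb of the start of each rps gene; the horizontal axis is the distance from the start in bp, negative upstream, and circle area is proportional to signal. The filled circles form a band from 564 to 132 bp upstream, and the summits downstream of the starts are small open circles.

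**Figure D4:**
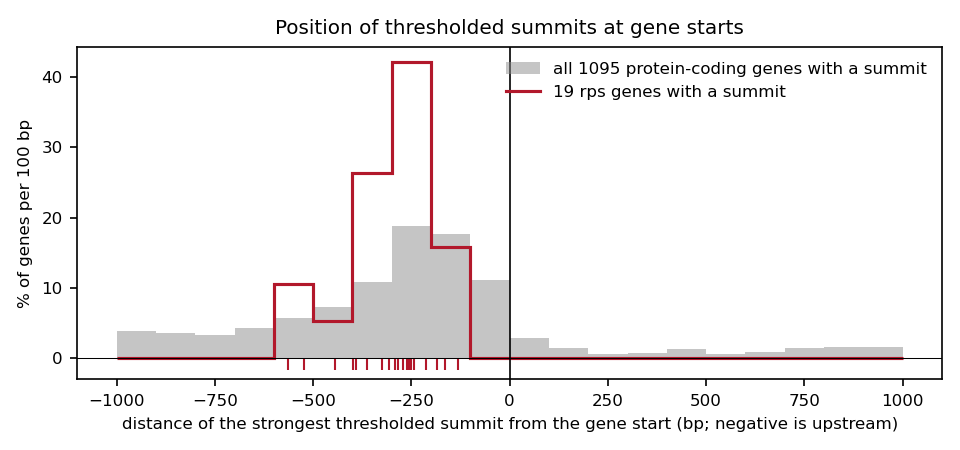
Distance of the strongest thresholded summit from the gene start (horizontal axis, bp, negative upstream) as a percentage of genes per 100 bp, for the 1095 protein-coding genes with a summit (grey) and the 19 rps genes (line, with a tick for each gene). The rps genes occupy the range from 564 to 132 bp upstream, while the grey distribution also reaches the start and continues downstream of it.

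The upstream regions of the rps genes were often shared with another gene. Another protein-coding start on the opposite strand, facing away, lay within 1 kb of 19 of the 31 rps genes (61.3%), against 17.7% of all protein-coding genes. The rpl genes had a like share, 28 of 47 (59.6%). Among the rps genes it was present at 15 of the 19 with a thresholded summit, or 14 of 18 without rps-18, and at 4 of the 12 with none. The corresponding shares were 61.3% and 56.3% for rpl genes, and 37.8% and 16.6% for all protein-coding genes. The thresholded summit lay between such divergent starts at 14 of 19 rps genes (73.7%), or 14 of 18 without rps-18, against 58.1% of the rpl genes with a summit and 37.6% of all genes with a summit. A peak in such a place cannot be assigned to 1 of its genes from position alone.

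In 3 cases the divergent partner was a large subunit gene. The summit of rps-30 lay 186 bp upstream of rps-30 and 313 bp upstream of rpl-39, and that of rps-14 lay 257 bp upstream of rps-14 and 406 bp upstream of rpl-36. At rps-10 the summit was nearer to the partner, 248 bp upstream of rpl-24.1 against 362 bp for rps-10. The other divergent partners did not carry rps- or rpl- symbols. The summit of rps-29 was 3 bp upstream of the start of snt-2, a synaptotagmin gene, and that of rps-0 was 47 bp upstream of rbg-3. The summit of rps-12 was 129 bp upstream of ska-3 and that of rps-22 134 bp upstream of polh-1, each nearly midway between its starts. The summits of rps-4, rps-21 and rps-24 had no other protein-coding start within 1 kb, and their signals were 54.0, 45.1 and 46.3.

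By annotation, 18 of the 19 rps summits (94.7%) lay outside protein-coding genes, against 65.4% of the 2005 thresholded summits. Of these 18, the summits of rps-1, rps-10 and rps-30 fell inside annotated non-coding RNA genes, a place held by 3 of 19 rps summits (15.8%) and 6.78% of all summits. The exception was the summit of rps-18, which fell inside the 5' untranslated region of sec-61.A, 107 bp downstream of its start. The gene sec-61.A encodes a subunit of the protein-conducting channel of the endoplasmic reticulum and is divergent from rps-18. This was also the peak with no overlapping region in replicate 2, where the nearest summit to the rps-18 start was 3184 bp downstream.

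The nearest protein-coding gene upstream was on the opposite strand for 17 of the 19 genes with a summit (16 of 18 without rps-18) and for 5 of the 12 without. It was on the same strand for the other 2 and 7, respectively. The genes in the second group with a same-strand upstream neighbour were rps-2, rps-7, rps-8, rps-11, rps-16, rps-17 and rps-25. The median gap to the 3' end of that neighbour was 481 bp for these 7 genes. To the start of an opposite-strand neighbour it was 534 bp for the 17 called genes and 592 bp for the 5 genes without a summit. These orientations were compared after the peaks were known, and no test was made. They were not counted over the rpl genes or over all protein-coding genes, so they cannot be read as particular to the rps genes.

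The regions that overlapped the thresholded rps peaks were found in both replicates for 18 of 19 genes. Summits in the 2 replicates were 4 to 127 bp apart with a median of 40.5 bp (n = 18), against a median of 41 bp over the thresholded peaks. Of the 18 regions, 17 ranked within the strongest 2005 in replicate 1 and 14 did so in replicate 2. Over the 1988 thresholded peaks found in both, 1660 and 1502 did. The median rank was 534.5 in replicate 1 and 866.5 in replicate 2, and 9 of the 18 had the better rank in replicate 1. For the 1988 peaks the median ranks were 993 and 1065.5, and 1096 had the better rank in replicate 1. Across the 18 peaks the signals in the replicates had a Spearman rho of 0.383 and a Pearson r of 0.397 on the log2 scale, against 0.366 and 0.379 over 1988 thresholded peaks found in both. These correlations are across peaks, not animals, and the peaks were selected on the pooled signal of the same libraries. Their order among the rps genes was thus only partly shared between the libraries.

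**Figure D5:**
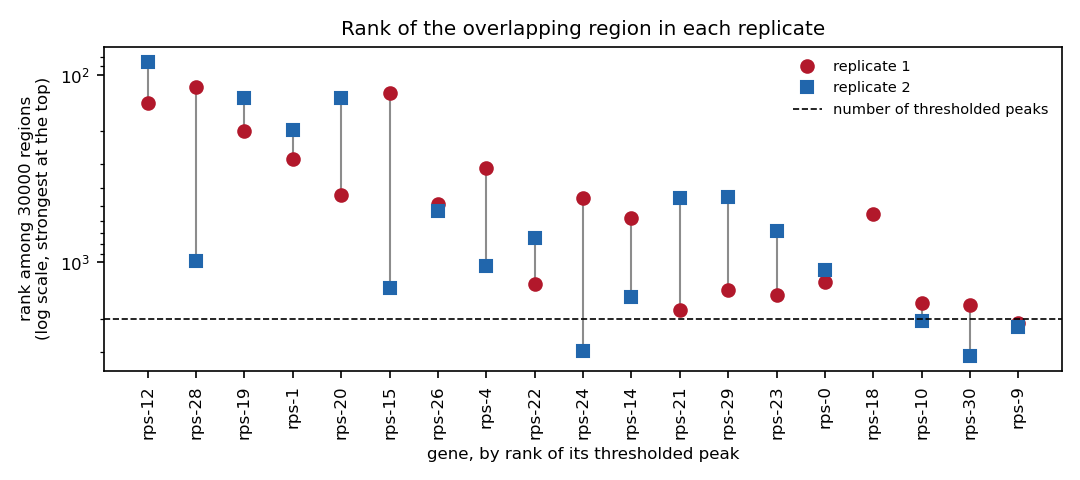
Rank of the region overlapping each thresholded rps peak in replicate 1 (circles) and replicate 2 (squares), on a log axis with the strongest at the top; genes are ordered by the rank of the thresholded peak, and the dashed line marks rank 2005. The pair of points is close together at rps-1 and rps-26 and far apart at rps-28, rps-15 and rps-24, and rps-18 has no square.

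Taking the 2005 strongest regions of 1 replicate in place of the thresholded list gave 14 rps genes for replicate 2 alone and 20 for replicate 1 alone. Replicate 2 alone dropped rps-9, rps-10, rps-18, rps-24 and rps-30. Replicate 1 alone dropped rps-9 and added rps-6 and rps-17. The share of all protein-coding genes was 5.07% and 5.47%, respectively.

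The forkhead core was searched on both strands as GTAAACA or ATAAACA or GTAAATA or ATAAATA. Within 50 bp of the summit it occurred at 0 of the 19 rps summits, at 0 of 27 rpl summits not shared with an rps gene, and at 111 of 2005 thresholded summits (5.54%). That share of 19 windows comes to about 1 window. In the 250 bp upstream of the start, 9 of 31 rps genes (29.0%) held a form of the core, against 31.6% of all protein-coding genes. A repeat of GA or CT letters (CTCTCTC or AGAGAGA or AAGAAGA or CTTCTTC, both strands) occurred at 0 of 19 rps summits and 3 of 27 rpl summits, against 638 of 2005 summits (31.8%). In the 250 bp upstream of the start these words were found at 25.8% of rps genes and 22.1% of all genes. The median rps summit lay 284 bp upstream, so these 250 bp stretches leave out most of the called rps summits. The TATA word TATAAA was at 0 of 19 rps summits and 5.09% of all summits. In the 250 bp upstream of the start it was at 29.0% of rps genes and 35.2% of all genes. The word GAGACGC was at 1 of 19 rps summits, that of rps-0, and 8.63% of all summits. The word CACGTG was at 0 of 19 rps summits and 2.44% of all summits. A word that is not found in these windows says nothing of whether a factor binds there. Introns held 27.2% of the 2005 summits and 0 of the 19 rps summits, and the motif shares were not split by location. All motifs of this paragraph were chosen with earlier results of these data known, so the gaps between these shares were not tested.

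The median GC content of the 101 bp windows was 47.5% over the 19 rps summits, 49.5% over the 27 rpl summits and 43.6% over all 2005. The rps values ran from 29.7% at rps-18, with 39.6% the lowest of the others, to 58.4% at rps-19, with a mean of 48.2 ± 6.99% (SD, n = 19), against 43.5 ± 8.69% over all summits. The rps range lay within that of all summits, which ran from 17.8% to 71.3%.

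Words of 6 letters that occurred on either strand in at least 7 of the 19 windows were then listed. This list was read from the rps windows themselves, so the counts are descriptions and carry no test. Apart from 2 words of A and T runs, it held 5 words. The word CAGCCA was in 8 of 19 rps windows, 4 of 27 rpl windows and 4.24% of all windows. The word CGCAGC was in 7 of 19, 4 of 27 and 4.14%, and the word TACGCA in 7, 3 and 3.89%. The words CGTTGA and AGCCAA were also each in 7 rps windows, with 3.84% and 4.49% of all windows. Several overlap one another, as in the window of rps-21 printed above, where CGCAGC runs into CAGCCA and on into AGCCAA. In the 600 bp upstream of the start, called or not, CGCAGC was present in 41.9% of the 31 rps genes and 7.85% of all protein-coding genes. The shares for the other 4 words were closer. They were 35.5% against 13.5% for CAGCCA, 35.5% against 12.5% for TACGCA, 45.2% against 18.1% for CGTTGA and 38.7% against 21.8% for AGCCAA. These upstream stretches hold nearly all of the summit windows from which the words were picked, so these rps shares were raised by that choice.

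Words of 11 letters that occurred on either strand in at least 3 of the 19 windows of 201 bp were listed in the same way, and overlapping words shared by the same genes were joined. Of 13 such words 5 were A-rich, with 3665 to 5897 copies in the genome and each in 3 or 4 rps windows, and they are not described further. The joined 16-letter word CTGAGTATTCAACGTT was found at rps-0, rps-20, rps-22 and rps-30, in the same orientation relative to each gene. It is printed in capitals in the windows of rps-22 and rps-30. The reference genome held 16 copies of it, and 5 thresholded windows held one, the fifth at the start of ints-4. All thresholded windows together covered 0.402% of the genome. The words of this list were picked because they recurred in rps windows. Their numbers in thresholded windows, for this word and those below, were raised by that choice and carry no test. The centre of the 16-letter word lay 95.5 bp upstream of rps-22, 200.5 bp upstream of rps-20, 225.5 bp upstream of rps-30 and 275.5 bp upstream of rps-0. It stood 36.5 to 50.5 bp from the summit, on the downstream side in 3 genes and on the upstream side in rps-30.

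The 11-letter word GCTGCGTAGCG was shared by rps-10, rps-14 and rps-19, with 4 to 22 bp between its centre and the summit. It had 18 copies in the genome, of which 7 thresholded windows held one. The other windows lay at the starts of vig-1, of syf-2 and K04G7.1, of vha-1 and sqv-3, and of rpl-12 and lin-54. The last of these had a signal of 119.5 and rank 18. A further 11-letter word, ACACTCGTTTC, was at rps-10, rps-23 and rps-29. Its centre was 1 bp from the summit at rps-10, 3 bp at rps-23 and 71 bp at rps-29. The genome held 66 copies and 9 thresholded windows held one. Those away from rps genes lay at the starts of rpl-11.2, of rpl-22 and ify-1, of ndk-1 and F25H2.6, of rpn-5 and scc-1, of npp-3 and top-2, and of T26A8.4 and pdtf-1. These matches are descriptions of letters and not sites of any named factor.

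Other gene lists, of the mitochondrial small subunit, translation initiation and small subunit assembly, gave lower shares in the thresholded list. Of 29 mitochondrial small subunit genes (mrps-), 2 had a thresholded summit (6.90%), near the 5.48% of all protein-coding genes. They were mrps-7 at rank 1099 and mrps-17 at rank 1260. Of 27 genes for translation initiation factors, not all of which act on the 40S subunit itself, 5 did (18.5%). The strongest was at drr-2, which had a signal of 108 and rank 27, followed by eif-3.C with 48.5. Of 23 genes for assembly factors of the subunit, 2 did (8.70%), also near the 5.48% of all genes, fib-1 with 57.3 and nol-56 with 39.4. The gene ubl-1, which encodes the ribosomal protein S27a fused to a ubiquitin-like sequence and is outside the rps- symbols, had a summit 206 bp upstream with a signal of 55.4. Large subunit genes had the strongest peak of the whole list, at rpl-3, with a signal of 182, whereas the strongest rps peak had rank 71. The median signal was 46.3 over the 19 rps genes (48.7 without rps-18), 46.2 over the 31 rpl genes and 41.7 over the 1095 genes with a summit.

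By chromosome, the rps genes with a thresholded summit numbered 5 of 8 on I, 1 of 1 on II, 7 of 9 on III, 5 of 10 on IV (4 without rps-18) and 1 of 3 on V. The X chromosome, which holds 13.7% of the protein-coding genes, has no rps gene.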

How the data were processed

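Peak lists from ChIP-seq of tagged FKH-10 in 2 biological replicates of L3 animals were read as deposited on ce11. Per the deposited descriptions, the authors called regions per replicate and on both pooled, against a control that was not analysed here, and derived the thresholded list by irreproducible discovery rate. The deposited signal values are those of the authors' caller. Not given in the sources used here are the aligner, caller, versions, signal scaling, threshold and depth. The ce10 lists were not used.

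Summits were assigned to every protein-coding gene start (Ensembl release 115) within 1000 bp, and ranks were set by signal within each list. Sequence was read from the WBcel235 reference, and words were searched on both strands. Python 3.11.15, numpy 2.4.6 and pandas 2.3.3 were used, and the assignment was tested on simulated peaks. All rps genes were named by rule. The comparison lists of initiation and assembly factors were matched by symbol, with 4 of 31 and 11 of 34 symbols unmatched. The genes, lists and motifs were chosen with earlier results of these data known. Alternatives were other windows, assignment to the nearest start, any transcript start, overlap of regions, stronger peaks, as many of the strongest pooled regions and each replicate alone.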

Additional observations from a re-analysis of the deposited data

How the results depend on the processing

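Of 67 recomputed values, 59 stayed within 1.5 times the count or within the spread of the value as reported, and 8 moved by more. The setting that took as many of the strongest pooled regions returned the thresholded list itself, so its values could not differ from those reported. With each summit given only to its nearest start, the rps count fell from 19 to 10 in the thresholded list and likewise to 10 for upstream summits, the rpl count from 31 to 18, and the rps counts in the pooled, replicate 1 and replicate 2 lists to 18, 19 and 16. That rule drops a gene by construction where a divergent neighbour is nearer. With the stronger peaks of the thresholded list alone the rpl count was 17 and the rps count 14, because fewer peaks were used, and 2.72% of all genes were called. Within 100 bp rather than 50 bp of the summit, 1 rps window held a forkhead core. A window of 500 bp gave 17 rps genes, without rps-18 and rps-29, and 4.06% of all genes. Any annotated transcript start or any overlap of the region with the window gave 19, and 6.07% and 6.06% of all genes. Leaving out rps-18, an alternative chosen after seeing the data, gave 18. Each replicate alone gave 14 to 20 rps genes. Median signal was not recomputed for 1 replicate alone, because signal is scaled differently in each list. No paired analysis was possible because there was 1 group. With 2 replicates and unknown depth, a missing region cannot be told apart from one below detection.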
